A study of Bos taurus with 24 samples.

Results

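Interleukin-6 and its signalling route were followed here through 4 genes, IL6, IL6ST, STAT3 and SOCS3, in cattle satellite cells, which are muscle stem cells, grown alone or with fibroblasts. The 4 genes were chosen by symbol, and each matched 1 row of the 11937 genes in the deposited count table. RNA came from satellite cells of the longissimus dorsi muscle, labelled wild type (WT), a mix of 3 cell lines at passage 3. They were plated at 8000 cells/cm2 either alone (monoculture) or in plates that a membrane with 0.4 µm pores divides from fibroblasts at passage 10 (coculture). All wells received medium with 20% fetal bovine serum for 5 days and then medium with 10% horse serum, which starts differentiation. RNA was taken before that change of medium (proliferation) and 24 h or 72 h later, with 4 libraries for each of the 6 groups. The labels do not say that replicates were separate cultures, so p-values measure the spread between these libraries, which may be technical.

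IL6 is a secreted cytokine of inflammation that contracting muscle also releases. It binds the receptor IL6R, and the pair engages gp130, the signalling subunit encoded by IL6ST and shared by the whole cytokine family, which includes LIF, IL11 and oncostatin M. Janus kinases bound to gp130 then phosphorylate the transcription factor STAT3, which enters the nucleus and induces target genes. One target is SOCS3, which binds gp130 and the kinases and shuts the signal off. Phosphorylation and protein were not measured, so the values below are RNA levels.

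Library totals ran from 11541988 to 34957625 counts. Nuclear ribosomal RNA took at most 1.40% of counts in 20 libraries. It took 4.07% in coculture 24 h replicate 2, 2.24% in coculture 72 h replicate 1, and 2.14% and 1.76% in monoculture 72 h replicates 3 and 4. All 4 coculture libraries of 72 h and 2 of those of 24 h were sequenced in lane 7 and the rest in lane 6, so that lane and culture cannot be told apart at 72 h. A code of unstated meaning in the labels is 1 for monoculture at 24 h and 72 h and 2 for the other groups, and it too cannot be told apart from culture at those times. Between proliferation and 72 h in coculture, lane cannot be told apart from time. Between proliferation and either later time in monoculture, the same holds for the code. Of 14 markers of satellite cells and myoblasts, 5 are listed in the table (NCAM1, ITGA7, SDC4, MET and DES), and the defining PAX7, MYF5, MYOD1 and MYOG are not among the listed genes. Each listed gene has at least 6 counts in each of the 24 libraries, and the rule by which genes were listed is not known here. A gene's absence from the table therefore does not give its level.

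IL6 itself was higher in coculture at 72 h. Levels are given in CPM, a gene's counts relative to its library's total after TMM scaling, in the order of replicates 1 to 4 throughout. In monoculture at 72 h the 4 libraries held 21.1, 16.02, 15.5 and 28.2 CPM of IL6. In coculture at 72 h they held 54.8, 197, 145 and 114 CPM. The lowest coculture library thus lay above the highest monoculture library, and the coculture libraries varied widely. The means were 128 ± 59.3 and 20.2 ± 5.87 CPM (SD, n = 4). On the log2 scale coculture was higher by 2.67 ± 0.215 (SE), with an adjusted p of 1.16e-11 from edgeR's quasi-likelihood test over all genes. By log2 fold change IL6 ranked 7 among the 11937 genes in this comparison. The deposited annotation places IL6 (ENSBTAG00000014921) on chromosome 4 at 31454757 to 31459131, and the sources used here do not name the build.

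Before 72 h IL6 was scarce. It had 16 to 26 counts per library in proliferating monoculture and 37 to 76 in proliferating coculture. In CPM the monoculture libraries were at 0.994, 1.20, 1.11 and 1.27, and the coculture libraries at 2.40, 2.05, 3.26 and 2.21. Every coculture library was above every monoculture library. The fitted difference was 1.02 ± 0.587 on the log2 scale and did not pass the test over all genes (edgeR adjusted p = 0.135; 95% interval -0.18 to 2.22). That model gives IL6 1 spread for all 6 groups, including the wide coculture group of 72 h. With only the 8 proliferation libraries in the fit, the value was 1.03 ± 0.205 (edgeR adjusted p = 0.000121).

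At 24 h the pattern was alike. IL6 stood at 1.70, 1.92, 1.47 and 0.942 CPM in monoculture and at 2.93, 3.71, 2.81 and 3.15 in coculture, again without overlap. The log2 difference was 1.03 ± 0.522 (edgeR adjusted p = 0.158), and 1.03 ± 0.197 with only the 24 h libraries in the fit (edgeR adjusted p = 0.000957). A two-sided exact permutation test of log2 CPM, 4 libraries against 4, gave p = 0.0286 for IL6 at each of the 3 times, the smallest p that 70 arrangements allow. There were 12 such tests, 1 for each gene and time. In the authors' deposited tables the IL6 difference was 1.07 in proliferation (adjusted p = 0.000118), 1.04 at 24 h (adjusted p = 0.000121) and 2.66 at 72 h (adjusted p = 2.15e-09).

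**Figure D1:**
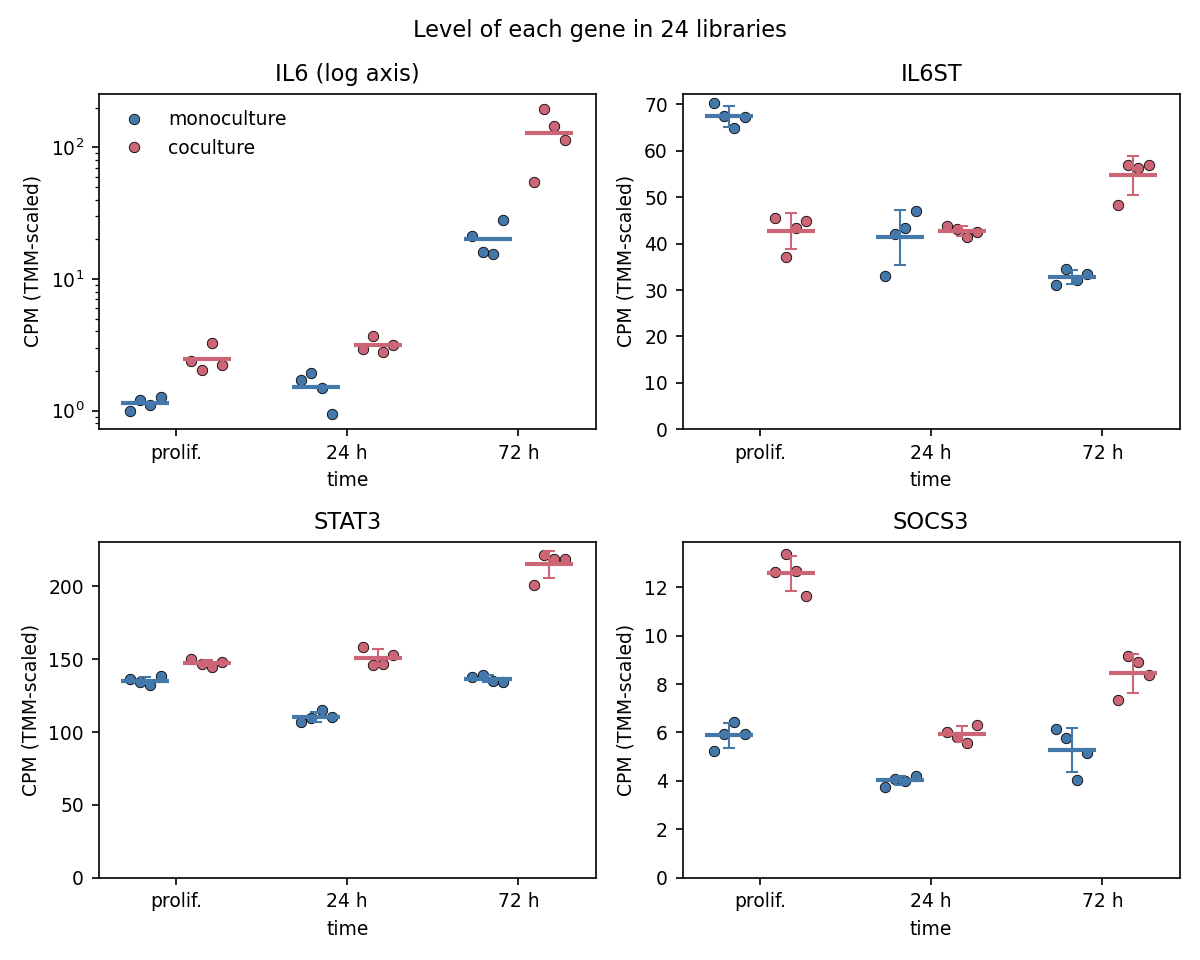
CPM of IL6, IL6ST, STAT3 and SOCS3 in each of the 24 libraries by time, monoculture in blue and coculture in red, with the mean of 4 libraries as a bar and the SD as whiskers (none for IL6, whose axis is logarithmic). IL6 is at 0.942 to 3.71 CPM before 72 h and at 15.5 to 197 CPM at 72 h, and SOCS3 is highest in proliferating coculture.

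IL6ST, the gp130 subunit, changed in opposite directions at the first and the last time. In proliferation the monoculture libraries held 70.4, 67.4, 64.8 and 67.2 CPM and the coculture libraries 45.6, 37.1, 43.3 and 44.9 CPM. The groups did not overlap, and IL6ST fell by 0.67 ± 0.0711 on the log2 scale in coculture (edgeR adjusted p = 4.24e-09). At 72 h the order was turned around, with 31.0, 34.6, 32.1 and 33.4 CPM in monoculture and 48.4, 56.9, 56.3 and 57.0 CPM in coculture. The difference at 72 h was 0.74 ± 0.0743 (edgeR adjusted p = 1.21e-09). IL6ST (ENSBTAG00000017745) is placed on chromosome 20 at 23191948 to 23250511.

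At 24 h no difference in IL6ST was detectable. The coculture libraries, at 43.8, 43.1, 41.4 and 42.5 CPM, lay inside the range of the monoculture libraries, at 33.05, 42.1, 43.4 and 47.0 CPM. The log2 difference was 0.04 with a 95% interval of -0.11 to 0.19 (edgeR adjusted p = 0.714). Monoculture 24 h replicate 1 was the lowest library of that group, and without it the difference was -0.045. IL6R, the ligand-binding receptor, and LIFR, the receptor subunit for LIF, are not among the listed genes.

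STAT3, the transcription factor of the route, was higher in coculture at all 3 times, and the difference grew with time. In proliferation the monoculture libraries held 137, 134, 132 and 138 CPM against 150, 147, 144 and 148 CPM in coculture. This small difference of 0.12 ± 0.0386 passed the test (edgeR adjusted p = 0.00715), but with library sizes alone in place of TMM it was 0.054 (adjusted p = 0.37). At 24 h STAT3 stood at 107, 109, 115 and 110 CPM in monoculture and at 158, 146, 147 and 153 CPM in coculture, a difference of 0.45 ± 0.0388 (edgeR adjusted p = 3.38e-10). At 72 h it reached 201, 221, 219 and 219 CPM in coculture, against 138, 139, 135 and 134 CPM in monoculture. That difference was 0.66 ± 0.0385 (edgeR adjusted p = 1.29e-14), and by p-value STAT3 ranked 47 of the 11937 genes. The groups did not overlap at any time. STAT3 (ENSBTAG00000021523) is placed on chromosome 19 at 42417949 to 42491771.

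SOCS3, the feedback inhibitor, was also higher in coculture throughout, most in proliferation. There the coculture libraries held 12.6, 13.4, 12.7 and 11.6 CPM and the monoculture libraries 5.22, 5.93, 6.44 and 5.93 CPM. SOCS3 rose by a log2 of 1.10 ± 0.0981 (2.14-fold; edgeR adjusted p = 1.91e-10), rank 21 of all genes by log2 fold change. At 24 h it stood at 6.04, 5.83, 5.56 and 6.30 CPM in coculture and at 3.77, 4.10, 4.00 and 4.21 CPM in monoculture (0.56 ± 0.115, edgeR adjusted p = 0.000487). At 72 h the coculture libraries held 7.35, 9.16, 8.91 and 8.39 CPM and the monoculture libraries 6.14, 5.75, 4.06 and 5.17 CPM (0.66 ± 0.107, edgeR adjusted p = 5.67e-06). At each time the lowest coculture library was above the highest monoculture library. SOCS3 (ENSBTAG00000008441) is placed on chromosome 19 at 53838329 to 53843436.

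These counts stand against a background in which many genes differed between the cultures. In proliferation 30.3% of all genes were called higher in coculture and 28.7% lower at an adjusted p under 0.05. Of the 4 genes, STAT3 and SOCS3 were called higher and IL6ST lower. All 4 had non-overlapping libraries, as had 53.0% of all genes. At 24 h 11.5% of all genes were called higher and 12.2% lower, and STAT3 and SOCS3 were called higher. The libraries of IL6, STAT3 and SOCS3 were apart, as were those of 24.4% of all genes. At 72 h 25.1% of all genes were called higher and 25.4% lower, 42.0% had non-overlapping libraries, and all 4 genes were called higher and non-overlapping. Within lane 6 alone, with 4 monoculture and 2 coculture libraries, the 24 h differences were 1.11 for IL6, 0.07 for IL6ST, 0.46 for STAT3 and 0.56 for SOCS3 (edgeR adjusted p = 0.00988, 0.691, 1.61e-07 and 0.0102). The 12 exact permutation tests of the 4 genes gave p = 0.0286, except IL6ST at 24 h (exact p = 0.8).

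**Figure D2:**
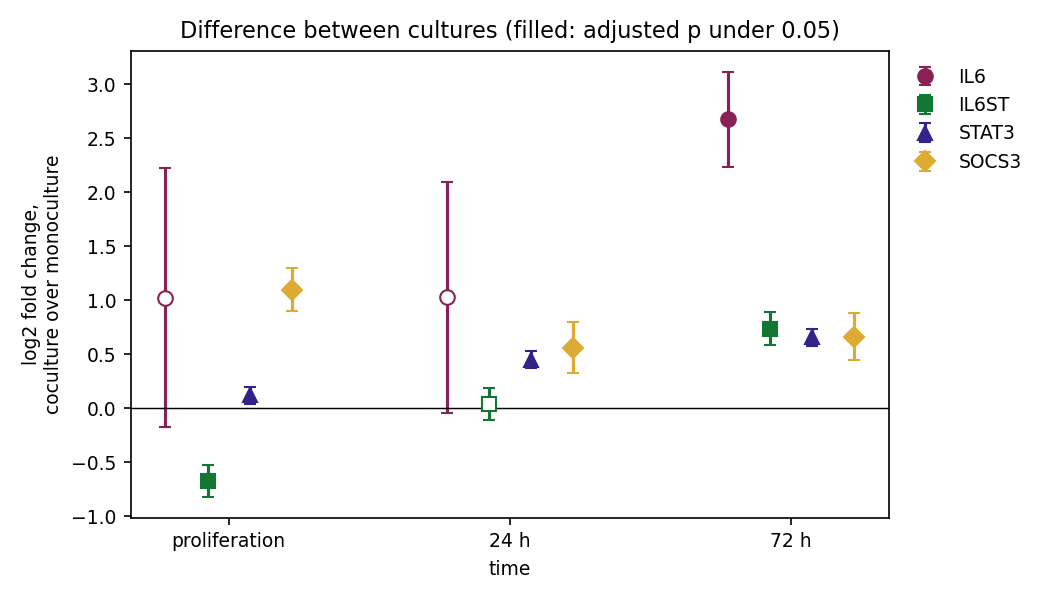
Log2 fold change of coculture over monoculture for the 4 genes in proliferation, at 24 h and at 72 h, with 95% intervals from edgeR's fit over all 24 libraries; open symbols did not pass an adjusted p of 0.05. IL6ST goes from -0.67 to 0.74, STAT3 from 0.12 to 0.66, and the wide intervals of IL6 before 72 h reach below 0.

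Whether the culture difference itself differed between times was tested for each gene. For IL6ST it was larger by 0.71 ± 0.102 at 24 h than in proliferation (edgeR adjusted p = 1.42e-06) and by another 0.70 ± 0.104 at 72 h than at 24 h (edgeR adjusted p = 8.87e-06). From proliferation to 72 h the change was 1.41 ± 0.103 (edgeR adjusted p = 3.1e-12), rank 66 of all genes by p-value. For STAT3 the difference grew by 0.33 ± 0.0547 between proliferation and 24 h (edgeR adjusted p = 1.28e-05) and by 0.20 ± 0.0545 between 24 h and 72 h (edgeR adjusted p = 0.00634). SOCS3 went the other way at first: its difference changed by -0.54 ± 0.153 on the log2 scale between proliferation and 24 h (edgeR adjusted p = 0.00439). Between 24 h and 72 h the change for SOCS3 was 0.10 with a 95% interval of -0.22 to 0.43 (edgeR adjusted p = 0.691). Over all genes 50.5% were called for the first step, 23.7% for the second, and 62.3% between proliferation and 72 h, against 3, 3 and 4 of the 4 genes.

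From proliferation to 72 h the SOCS3 difference changed by -0.43 ± 0.146 (edgeR adjusted p = 0.0113). That call was lost with library sizes alone (-0.234, adjusted p = 0.214), with lane in the model (-0.44, adjusted p = 0.09) and without monoculture 72 h replicate 1 (-0.344, adjusted p = 0.0518). The corresponding change for STAT3 was 0.53 ± 0.0545 (edgeR adjusted p = 1.64e-09).

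For IL6 the difference was larger by 1.65 ± 0.61 at 72 h than at 24 h (edgeR adjusted p = 0.0482) and by 1.65 ± 0.686 than in proliferation (edgeR adjusted p = 0.0374). Both calls were marginal. The first was lost on leaving out any 1 of 10 of the 16 libraries concerned, namely monoculture 24 h replicates 1, 2 and 3, monoculture 72 h replicates 1, 2 and 3, coculture 24 h replicates 1, 3 and 4, and coculture 72 h replicate 3 (adjusted p 0.0594 to 0.158). The second was lost without any 1 of 8 libraries, namely each of the 4 of proliferating monoculture, monoculture 72 h replicates 2 and 3, and coculture proliferation replicates 2 and 4 (adjusted p 0.0511 to 0.0848). Without coculture 72 h replicate 1, the lowest in IL6, the first change was 1.90 ± 0.379 (edgeR adjusted p = 0.00038). Between proliferation and 24 h the estimated change for IL6 was 0.0023 (edgeR adjusted p = 0.999).

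Within each culture IL6 rose steeply between 24 h and 72 h. In monoculture it went from 1.51 ± 0.42 to 20.2 ± 5.87 CPM (SD, n = 4), a log2 change of 3.69 ± 0.375 (edgeR adjusted p = 9.24e-10). In coculture it went from 3.15 ± 0.399 to 128 ± 59.3 CPM, a log2 change of 5.33 ± 0.278 (40.3-fold; edgeR adjusted p = 2.33e-16), which ranked 2 among all genes. From proliferation to 72 h the coculture rise of 5.76 ± 0.291 was the largest log2 fold change of the 11937 genes (edgeR adjusted p = 5.35e-17). That step also went from lane 6 to lane 7. With lane as a covariate, whose effect rests on the 24 h coculture libraries, the rise was 5.92 ± 0.797 (edgeR adjusted p = 5.99e-07). From proliferation to 72 h in monoculture the rise was 4.11 ± 0.397 (edgeR adjusted p = 1.02e-10), rank 16, and the code went from 2 to 1. In the first 24 h IL6 changed by 0.42 in monoculture (edgeR adjusted p = 0.575) and by 0.43 in coculture (edgeR adjusted p = 0.49), neither past the threshold.

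The receptor subunit and the transcription factor followed different courses in the 2 cultures. In monoculture IL6ST fell by 0.70 ± 0.071 in the first 24 h (edgeR adjusted p = 4.87e-10) and by a further 0.34 ± 0.0757 to 72 h (edgeR adjusted p = 0.000358), a step in which the libraries overlapped (two-sided exact permutation p = 0.0857). In coculture it was at 42.7 ± 3.87 CPM in proliferation and 42.7 ± 1.00 CPM at 24 h, and then rose by 0.36 ± 0.0718 (edgeR adjusted p = 0.00012). STAT3 in monoculture fell by 0.30 ± 0.0388 and then rose by 0.31 ± 0.0389 (edgeR adjusted p = 8.39e-08 and 7.23e-08), which brought it from 135 ± 2.63 to 110 ± 3.46 and to 136 ± 2.38 CPM. In coculture STAT3 stood at 147 ± 2.36 CPM in proliferation and 151 ± 5.79 CPM at 24 h, a log2 change of 0.03 (edgeR adjusted p = 0.507), and rose to 215 ± 9.38 CPM at 72 h (0.51 ± 0.0383, edgeR adjusted p = 1.24e-12). With library sizes alone STAT3 of monoculture at 72 h was below proliferation (-0.307, adjusted p = 1.97e-06), where the median over all genes also moved by -0.32.

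SOCS3 fell in both cultures on the change of medium and rose again by 72 h. In coculture the log2 change in the first 24 h was -1.09 ± 0.098 (edgeR adjusted p = 2.44e-10), from 12.6 ± 0.722 to 5.93 ± 0.316 CPM. SOCS3 was the only 1 of the 4 genes called in that step, against 43.2% of all genes. In monoculture the change was -0.55 ± 0.115 (edgeR adjusted p = 0.000107), and IL6ST and STAT3 were called lower too, against 68.5% of all genes called. Between 24 h and 72 h SOCS3 rose by 0.51 ± 0.103 in coculture (edgeR adjusted p = 0.00014) and by 0.41 ± 0.119 in monoculture (edgeR adjusted p = 0.00484; 0.279 and adjusted p = 0.0709 with library sizes alone). The SOCS3 libraries of monoculture overlapped (two-sided exact permutation p = 0.0857). All 4 genes were called in this step in each culture, against 48.2% of all genes in coculture and 53.9% in monoculture. Over the whole course SOCS3 in coculture was lower at 72 h than in proliferation (-0.58 ± 0.0939, edgeR adjusted p = 3.92e-06), while the other three were higher. All 4 were called there, against 60.3% of all genes. In monoculture IL6 and IL6ST were called from proliferation to 72 h, against 75.0% of all genes.

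Ordered by mean level, IL6 ran from proliferating monoculture through monoculture at 24 h, coculture in proliferation, coculture at 24 h and monoculture at 72 h to coculture at 72 h. The first and second of these groups overlapped, as did the 2 groups after them. For IL6ST the order began with monoculture at 72 h, monoculture at 24 h, coculture in proliferation and coculture at 24 h, each overlapping the next. Coculture at 72 h and proliferating monoculture stood above them, apart from each other. STAT3 was lowest in monoculture at 24 h and highest in coculture at 72 h, and the groups at both ends were apart from their neighbours. Proliferating and 72 h monoculture overlapped in STAT3, and so did proliferating and 24 h coculture. For SOCS3 the 3 monoculture groups and coculture at 24 h formed a chain of overlapping neighbours, with coculture at 72 h and then proliferating coculture above them.

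Coculture 72 h replicate 1 was the lowest library of its group for each of the 4 genes. Against the mean of monoculture at 72 h, IL6 was 2.71-fold in this library and 5.66- to 9.74-fold in the other three. For STAT3 the values were 1.47-fold against 1.60- to 1.62-fold, for IL6ST 1.48-fold against 1.72- to 1.74-fold, and for SOCS3 1.39-fold against 1.59- to 1.73-fold. Nuclear ribosomal RNA took 2.24% of counts in this library and 0.788 to 0.855% in the other three. Without this library the 72 h differences were 2.92 ± 0.137 for IL6, 0.79 ± 0.075 for IL6ST, 0.69 ± 0.0388 for STAT3 and 0.72 ± 0.111 for SOCS3, all called by edgeR. With lane as a covariate, whose effect rests on the 24 h coculture libraries, they were 2.83, 0.79, 0.68 and 0.66, with edgeR adjusted p of 0.00249, 2.3e-05, 8.86e-09 and 0.00943.

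**Figure D3:**
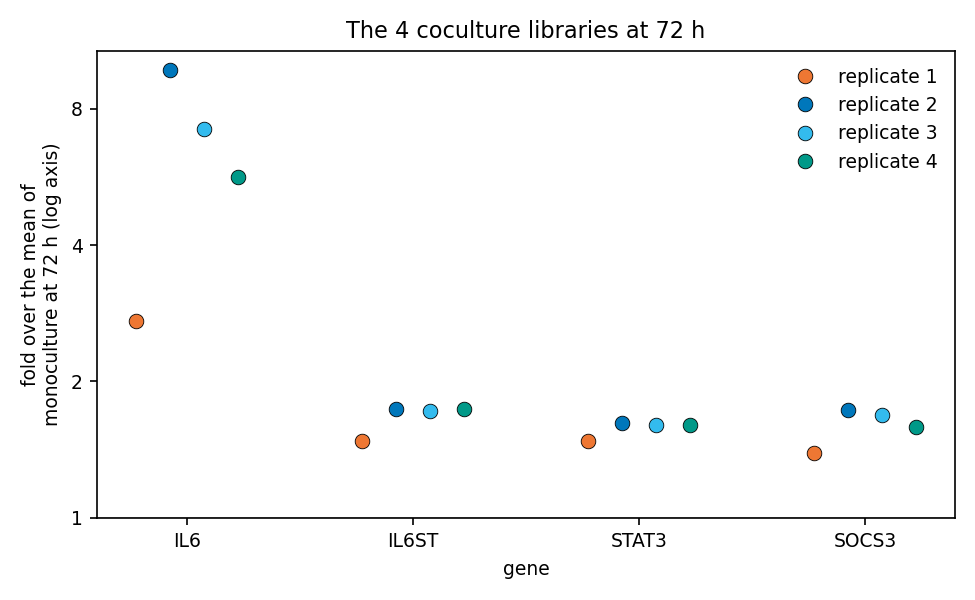
Level of each gene in the 4 coculture libraries of 72 h, as a fold over the mean of the 4 monoculture libraries of 72 h (log axis). Replicate 1 is lowest for every gene, at 2.71-fold for IL6 against 5.66- to 9.74-fold in the others.

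Markers of other cell types were summed in each library, since in bulk RNA a change in the share of a cell type and a change of RNA per cell cannot be told apart. Of 16 leukocyte markers 3 are listed (CD68, FCER1G and MRC1), and PTPRC, CD14, CSF1R and SPI1 are not. The summed level of the 3 at 72 h was 7.30 to 8.52 CPM in coculture and 4.23 to 5.39 CPM in monoculture, and MRC1 alone of the 3 was called higher (0.82). At 24 h 1 of the 3 was called higher and none lower, with log2 differences from -0.615 to 1.162. In proliferation none was called. Over all genes 25.1% were called higher at 72 h, 11.5% at 24 h and 30.3% in proliferation. At the earlier times the sums of the cultures overlapped. They were 3.361 to 5.425 CPM in coculture and 3.06 to 3.74 CPM in monoculture in proliferation, and 3.528 to 3.973 against 2.759 to 4.084 CPM at 24 h. Of 14 markers of fibroblasts and fibro-adipogenic progenitors 10 are listed. In proliferation 4 were called higher and 4 lower in coculture, and at 72 h 2 and 4, against the 30.3% and 28.7%, and 25.1% and 25.4%, of all genes. They summed to 114100 to 118100 CPM in coculture and 120700 to 138900 CPM in monoculture at 72 h, and to 63980 to 65350 against 54540 to 58620 CPM in proliferation. The 3 listed endothelial markers of 10 summed to 23.0 to 23.7 CPM in coculture and 18.5 to 25.9 CPM in monoculture at 72 h. In proliferation they summed to 20.45 to 21.79 against 17.55 to 19.73 CPM, and at 24 h to 32.69 to 36.48 against 38.79 to 50.83 CPM. Of these 3, 1 was called higher in proliferation, 1 lower at 24 h and 1 higher at 72 h, against 30.3%, 12.2% and 25.1% of all genes. The 5 listed satellite cell and myoblast markers summed to 257.4 to 270.2 against 422.3 to 455.5 CPM at 72 h. Their sum was 216.5 to 234.9 CPM in coculture and 170.6 to 180.1 CPM in monoculture in proliferation, and 216.4 to 247.7 against 301 to 315.7 CPM at 24 h. Of these 5, 2 were called higher and 1 lower in proliferation, 1 and 3 at 24 h, and 1 and 3 at 72 h. Over all genes the shares were 30.3% and 28.7%, 11.5% and 12.2%, and 25.1% and 25.4%. The log2 differences of the 5 at 72 h ran from -2.015 to 0.158. The part of these cell types in the results was not tested.

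Other genes of the route were read from 6 lists with 103 symbols, of which 79 are listed. For these genes rose or higher, and fell or lower, mean coculture against monoculture at the same time unless stated, not a change over time. In proliferation 42 were called higher in coculture and 17 lower, at 24 h 18 and 14, and at 72 h 40 and 21. Over all genes the shares called higher and lower were 30.3% and 28.7% in proliferation, 11.5% and 12.2% at 24 h, and 25.1% and 25.4% at 72 h. The median log2 fold changes of the 79 were 0.20, -0.01 and 0.17, against 0.004, -0.0027 and -0.0014 over all genes. Shares over all genes are from the fit without lane, here and for each list below. With lane as a covariate 1977 genes of the whole table were called in either direction at 24 h, in place of 2836. At 72 h 3402 were called, in place of 6029.

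Among the 5 listed ligands that share gp130, LIF was lower in coculture at 72 h, where IL6 was higher. LIF, the leukemia inhibitory factor, stood at 11.3 ± 1.97 CPM in coculture and 20.8 ± 4.31 CPM in monoculture at 72 h (SD, n = 4), a log2 change of -0.88 ± 0.12 (edgeR adjusted p = 3.65e-07). It was also lower at 24 h (-0.55, edgeR adjusted p = 0.0407) and was at 0.11 in proliferation (edgeR adjusted p = 0.62). Within each culture LIF, like IL6, had higher levels at 72 h than at 24 h, where it stood at 2.12 ± 0.258 CPM in coculture and 3.15 ± 0.329 CPM in monoculture. CLCF1 rose in proliferation (0.44) and fell at 72 h (-0.22). IL11, another member of the family, rose in proliferation (0.59, edgeR adjusted p = 0.0153) and was at -0.42 at 24 h and 0.39 at 72 h (edgeR adjusted p = 0.0988 and 0.0869). In all, 3 ligands rose and none fell in proliferation, 1 rose and 1 fell at 24 h, and 1 rose and 2 fell at 72 h, against 30.3% and 28.7%, 11.5% and 12.2%, and 25.1% and 25.4% of all genes. At 24 h the rise was lost without monoculture replicate 1 or 3 or coculture replicate 1. The fall was lost without monoculture replicate 3 or 4 or coculture replicate 1, 2 or 3, and 2 fell without monoculture replicate 2. At 72 h 1 ligand fell without monoculture replicate 1, and 2 rose without monoculture replicate 3. With lane as a covariate no ligand was called at 24 h, and at 72 h none was called higher and 1 lower. The shares over all genes given above are without lane.

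Of the 5 listed receptors and shedding enzymes, OSMR, which pairs with gp130 to receive oncostatin M, rose at each time and most at 72 h. OSMR was at 74.8 ± 7.67 CPM in coculture and 34.97 ± 4.64 CPM in monoculture at 72 h (1.10 ± 0.0841, edgeR adjusted p = 3.96e-12), after 0.40 in proliferation and 0.75 at 24 h. ADAM10, a protease that sheds membrane receptors, fell in proliferation (-0.40) and at 24 h (-0.16) and rose at 72 h (0.17), and the related ADAM17 rose at 72 h (0.24 ± 0.0499). IL27RA, a gp130 partner for IL27, rose in proliferation (0.22) and fell at 24 h (-0.28) and 72 h (-0.42). IL11RA rose in proliferation (0.27) and fell at 72 h (-0.30).

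Of 14 listed Janus kinases, STATs and adaptors, 5 were called higher and 4 lower in proliferation, 3 and 1 at 24 h, and 8 and 2 at 72 h (5 and 0 at 72 h with lane as a covariate). Over all genes, without lane, 30.3% and 28.7%, 11.5% and 12.2%, and 25.1% and 25.4% were called, shares that the proliferation counts were near. JAK2, a kinase of cytokine receptors, was like IL6ST lower in proliferation (-0.33 ± 0.0648, edgeR adjusted p = 7.98e-05) and higher at 72 h (0.67 ± 0.0674, edgeR adjusted p = 1.22e-09). Unlike IL6ST, JAK2 was already called higher at 24 h (0.45 ± 0.066, edgeR adjusted p = 6.09e-06). PTPN11, the phosphatase SHP2 that docks on gp130, went from -0.20 through 0.24 to 0.47. JAK1, the main kinase of gp130, was at -0.12 in proliferation, -0.005 at 24 h and 0.11 at 72 h (edgeR adjusted p = 0.0211, 0.951 and 0.0305). TYK2, a related kinase, was higher in proliferation (0.18) and was not called later. STAT6, a transcription factor of interleukin-4 signalling, rose in proliferation (0.18) and at 72 h (0.43). In proliferation STAT5A and STAT5B rose by 0.31 each and the adaptor SHC1 by 0.40, while the exchange factor SOS1 fell by 0.34 and was higher at 72 h (0.23, edgeR adjusted p = 0.00387). The docking protein GAB2 fell at 24 h (-0.38) and 72 h (-0.29), and GRB2, an adaptor, fell at 72 h (-0.16).

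The other inhibitors of the route did not all move as SOCS3 did. SOCS1, which binds Janus kinases directly, was higher in proliferation (1.46 ± 0.193 against 0.547 ± 0.144 CPM; 1.41 ± 0.318, edgeR adjusted p = 0.000387) and lower at 72 h (-0.72 ± 0.217, edgeR adjusted p = 0.00682), with -0.41 at 24 h (edgeR adjusted p = 0.244). The SOCS1 libraries of the cultures overlapped at 72 h. SOCS2, which restrains growth hormone signalling, rose at all 3 times (0.82, 0.40 and 0.76). CISH, another member of this family, rose in proliferation (0.61) and was not called later. SOCS4, SOCS5 and SOCS6 fell in proliferation (-0.62, -0.49 and -0.42), and SOCS4 and SOCS6 were higher at 72 h (0.34 and 0.28). USP18, an interferon-induced inhibitor, rose by 0.80, 0.88 and 1.59, and the adaptor SH2B3, a brake on JAK2, rose by 0.45 at 24 h and 0.35 at 72 h. PDLIM2, which promotes STAT breakdown, fell by 0.83 ± 0.0599 at 72 h, and PIAS3, an inhibitor of STAT3, fell by 0.20. Both had been higher in proliferation (0.45 and 0.15). Of 15 listed inhibitors 9 rose and 5 fell in proliferation, 3 rose and none fell at 24 h, and 6 rose and 4 fell at 72 h (3 and 2 at 72 h with lane as a covariate). The shares over all genes, without lane, were 30.3% and 28.7%, 11.5% and 12.2%, and 25.1% and 25.4%.

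Genes known as STAT3 targets were called in both directions at each time. Of 25 listed, 15 rose and 5 fell in proliferation, 9 and 5 at 24 h (the latter 2 with lane as a covariate), and 14 and 8 at 72 h (8 and 4 at 72 h with lane as a covariate). Over all genes, without lane, 30.3% were called higher and 28.7% lower in proliferation. At 24 h these shares were 11.5% and 12.2%, and at 72 h 25.1% and 25.4%. In proliferation SBNO2 (0.66 ± 0.056), a mediator of anti-inflammatory signalling, the NF-kB cofactor BCL3 (0.64) and the mRNA decay factor ZFP36 (0.57) rose most among called genes, and ZFP36 was lower at 72 h (-0.41). HIF1A (-0.52), the hypoxia factor, the adhesion molecule ICAM1 (-0.51) and the repressor BCL6 (-0.30) fell most in proliferation among called genes. HIF1A was higher at 24 h (0.15) and at 72 h (0.62). At 24 h CEBPD (0.64), BCL3 (0.61) and FOS (0.58) rose and ICAM1 (-1.19), the survival factor BCL2L1 (-0.54) and cyclin D1 (CCND1, -0.33) fell; CCND1 had been higher in proliferation (0.37). At 72 h TNFAIP3 (1.62 ± 0.18), which ends NF-kB signalling, the interleukin-4 receptor IL4R (1.14) and the survivin gene BIRC5 (1.08) rose most among called genes. PIM1, a kinase that STAT3 induces, fell by 1.41 ± 0.081 at 72 h (20.3 ± 1.21 against 54.0 ± 8.4 CPM; edgeR adjusted p = 7.29e-15), and BCL2L1 (-0.69) and FOS (-0.58) followed. The FOS libraries of the cultures overlapped at 72 h. PIM1 had been higher at 24 h (0.45).

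The 20 regulators of IL6 transcription and mRNA decay are all listed. CEBPB, CEBPD, FOS, TNFAIP3 and ZFP36 are also in the list of STAT3 targets, so the counts of these lists are not separate. In proliferation 11 rose and 2 fell, at 24 h 4 and 5, and at 72 h 11 and 5 (6 and 2 at 72 h with lane as a covariate). At 24 h 8 were lower with only the groups compared in the fit, and 2 higher within lane 6. Over all genes, in the fit of all 24 libraries without lane, 30.3% and 28.7%, 11.5% and 12.2%, and 25.1% and 25.4% were called. CEBPD, a C/EBP factor induced in inflammation, rose by 0.41, 0.64 and 0.63. The AP-1 subunits JUN and FOS, which also act on the IL6 gene, were higher in coculture at 24 h (0.57 and 0.58) and lower at 72 h (-0.45 and -0.58). At 72 h the libraries of the cultures overlapped for both genes. Within each culture both had higher mean levels at 72 h than at 24 h. JUN went from 81.4 to 107 CPM in coculture and from 55 to 146 CPM in monoculture. FOS went from 42.6 to 308 CPM in coculture and from 28.6 to 459 CPM in monoculture. ATF3, a stress-induced repressor, fell at 72 h (-0.96 ± 0.0885). NR3C1, the glucocorticoid receptor, fell in proliferation (-0.39) and rose at 72 h (0.70 ± 0.0621). The NF-kB subunits RELB (-0.53) and NFKB2 (-0.33) fell at 24 h with FOSL1 (-0.43), which had risen in proliferation (0.52), and ZFP36L1 fell in proliferation (-0.17). RELB (0.33), NFKB2 (0.34) and ZFP36L1 (0.17) were higher at 72 h.

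**Figure D4:**
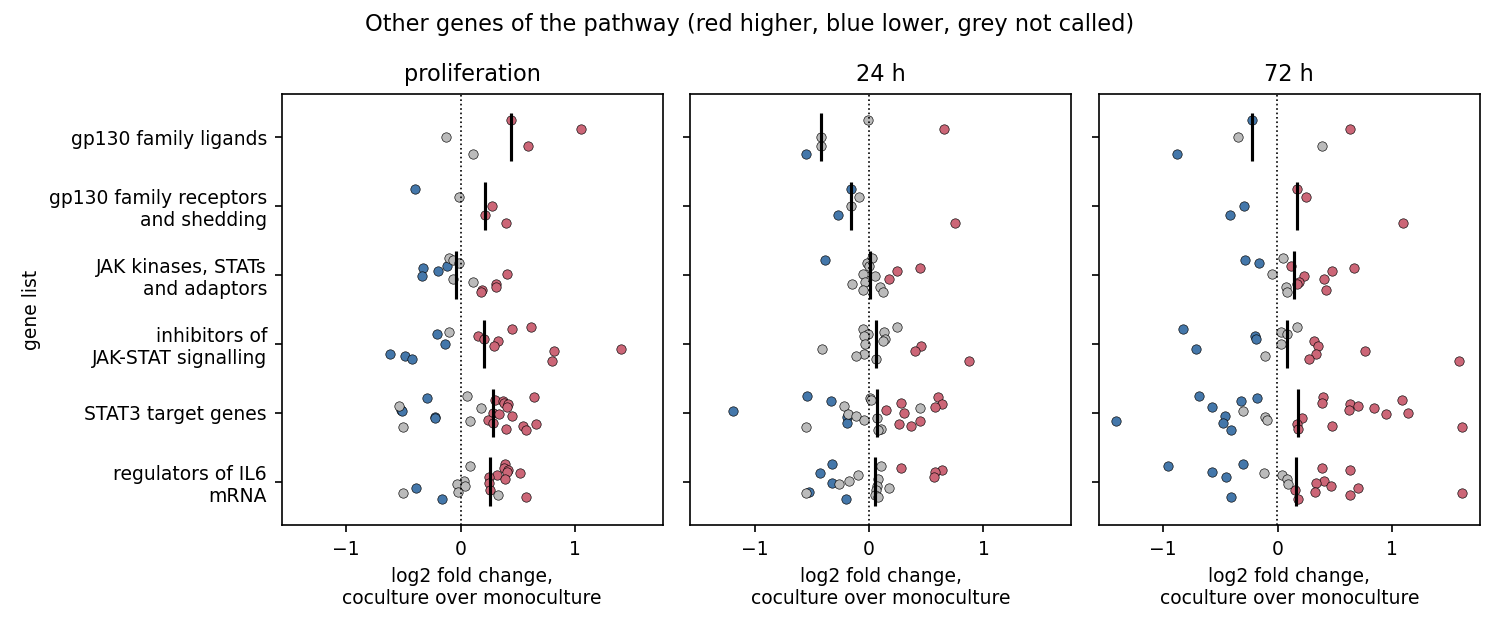
Log2 fold change of coculture over monoculture for the listed genes of 6 lists at 3 times, 1 point per gene, red where called higher, blue where called lower and grey where not called; black bars are list medians and the dotted line the median of all genes. Genes lie on both sides of 0 in each list, with USP18 (1.59) and TNFAIP3 (1.62) far right at 72 h and PIM1 (-1.41) far left.

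Genes with a pattern most like each of the 4 were sought among 9355 others with at least 5 CPM on average, by Pearson correlation of log2 CPM over the 24 libraries. Libraries of a group share their conditions, so these are descriptions. Closest to IL6 were WWC2 and BACE2, C1S, which encodes a complement protease, RNF185 and CEBPB (0.98, 0.98, 0.98, 0.98 and 0.97). CEBPB encodes the C/EBP factor first described as a binder of the IL6 promoter, and it was called higher in coculture at each time, by 0.38, 0.28 and 0.39. For IL6ST the closest were ATP11B, RAB8B, ARHGAP5, CPD and SAR1B (0.93 to 0.94). STAT3 was closest to FGF7, a growth factor of mesenchymal cells, at 0.99, followed by HK2, NCALD, GFPT2 and PDE4B (0.94 to 0.95). SOCS3 was closest to RPLP0, a protein of the large ribosomal subunit, at 0.91, and then to STEAP3, FOXK2, RACK1 and NADK (0.88 to 0.89). Ranked by Spearman correlation, 0, 1, 2 and 3 of the 5 genes were the same for IL6, IL6ST, STAT3 and SOCS3.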

How the data were processed

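RNA from 24 libraries was sequenced, 4 in each of 6 groups set by the sample titles. The authors deposited a table of whole-number counts per gene and library. Per the submitters' processing notes the tools were STAR, RSEM, FastQC and DESeq2, with no versions or roles, and the counts may be rounded RSEM estimates. Of its 36 library columns, 24 carry names in the labels, and the other 12 were not used. Per the file headers, the authors' deposited tables hold log2 fold changes with standard errors and p-values for each time; those values were only copied. The tables also hold a mean signal of normalized counts and a test score per gene, as deposited by the authors, which were not used.

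The count tests used edgeR 4.0.16 (R 4.3.3): TMM scaling, filterByExpr (0 genes removed), 1 mean per group over all 24 libraries (18 residual degrees of freedom), quasi-likelihood F tests and Benjamini-Hochberg adjustment over 11937 genes, called at an adjusted p under 0.05. Each SE was taken as the fold change, on the log2 scale, divided by the root of F. Log2 CPM used a prior count of 2. Alternatives used DESeq2 1.42.0 and limma 3.58.1. The code was tested on simulated data. Replicates in each group differed by more than sampling noise.

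The 4 genes, the lists, the tests and the naming rule were chosen with earlier results of these data known. The rule names the 4 genes, 10 core genes of the route where listed, up to 3 called genes per list, time and direction, and the 5 genes most like each. Values of a gene so named at other times are given where it was called in the opposite direction. Some genes that the rule names are not reported here.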

Additional observations from a re-analysis of the deposited data

Results flagged for a closer look

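For the 4 genes and 3 library measures, 42 groups of 4 libraries were searched for a library far from the other three, and 5 were found; chance gives about 1 in 20. In coculture at 72 h, replicate 1 was far below the other three in IL6ST (48.4 CPM) and STAT3 (201 CPM), and in the same library nuclear ribosomal RNA took 2.24% of counts, far above the others. Nuclear ribosomal RNA also stood apart in coculture 24 h replicate 2 (4.07%). The total of coculture 72 h replicate 4, 21.4 M counts, was above the other three.

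The difference between cultures itself differed between times in 10 of 12 tests on the 4 genes (edgeR, adjusted p under 0.05); over all genes 50.5% were called between proliferation and 24 h, 23.7% between 24 h and 72 h, and 62.3% between proliferation and 72 h. Between proliferation and 24 h it changed by 0.71 for IL6ST, 0.33 for STAT3 and -0.54 for SOCS3. Between 24 h and 72 h it changed by 1.65 for IL6, 0.70 for IL6ST and 0.20 for STAT3. Between proliferation and 72 h it changed by 1.65 for IL6, 1.41 for IL6ST, 0.53 for STAT3 and -0.43 for SOCS3. This last change is the sum of the earlier steps, so the 12 tests are not separate. Both IL6 calls, and the SOCS3 call between proliferation and 72 h, were lost under some alternative settings.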

How the results depend on the processing

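Of 916 values of the 4 genes under alternative settings, 857 kept their direction and side of the threshold. IL6 in coculture over monoculture became a call in proliferation and at 24 h with DESeq2 (1.09 and 1.05), with only the groups compared (1.03 and 1.03) and without the 4 libraries highest in nuclear rRNA (1.02 and 0.94), and within lane 6 at 24 h (1.11). The growth of the IL6 difference from 24 h and from proliferation to 72 h lost its call with only the groups compared (1.64 and 1.65), with limma voom and sample weights (1.52 and 1.49) and with the lane covariate (1.72 and 1.80); leaving out 1 library gave 1.36 to 1.90 for each. The IL6 change near 0 between proliferation and 24 h turned sign with DESeq2 (-0.047), upper-quartile factors (-0.016), a minimum mean of 5 CPM (-0.003), only the groups compared (-0.016), voom (-0.036), and without the 4 libraries (-0.083), and ranged from -0.14 to 0.17 on leaving out 1 library. With library sizes alone the values, each with the median of all genes in that comparison, were 0.054 for STAT3 in proliferation (median -0.065), -0.23 for the SOCS3 change from proliferation to 72 h (0.21), 0.28 and -0.46 for SOCS3 in monoculture from 24 h and from proliferation to 72 h (-0.13 and -0.32), -0.31 for STAT3 over the latter course, and -0.11 and -0.089 for IL6ST and STAT3 in coculture over the first 24 h (-0.13). That IL6ST value was -0.008 with voom and -0.063 to 0.047 on leaving out 1 library; IL6ST at 24 h ranged from -0.045 to 0.10. The SOCS3 change from proliferation to 72 h was -0.44 with the lane covariate and -0.54 to -0.34 on leaving out 1 library. Without the 4 libraries the SOCS3 change from 24 h to 72 h was -0.008 (-0.003 to 0.19 on leaving out 1), and SOCS3 in monoculture over the whole course 0.014. The causes were not tested. With sample numbers as a replicate block none of 48 calls changed (IL6 at 72 h 2.57). Same-numbered libraries of both cultures at the same time correlated by -0.13 to 0.12 in their deviations from group means. These correlations show no pairing by number but cannot exclude it. Genes called over the whole table fell from 6029 to 3402 at 72 h and from 7203 to 4368 for coculture from proliferation to 72 h with the lane covariate, and from 2836 to 1746 at 24 h within lane 6. Of 857 counts over lists and tables, 793 stayed within 1.5 times.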
